A study of Mus musculus with 9 samples.

Results

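The neuronal splicing switch regulators are RNA-binding proteins known for switching exons on and off during neuronal development, and 10 of the 24318 genes measured in N2A cells were taken up here. They are Ptbp1, Ptbp2, Nova1, Nova2, Rbfox1, Rbfox2, Rbfox3, Srrm4, Mbnl1 and Mbnl2, a list set by gene name, with no cutoff on their values, and drawn up with earlier results of these data known. N2A (Neuro2A) is a mouse neuroblastoma cell line, and the cells carry the wild-type genotype in all groups. RNA-seq was performed on 9 libraries, 3 from cells transfected with scramble siRNA, 3 with siRNA against EXOSC3 (siEXOSC3), a cap subunit of the RNA exosome that degrades and trims RNA, and 3 with siRNA against DDX1 (siDDX1), a DEAD-box RNA helicase. The comparisons ask which transcripts change when either protein is depleted, and each knockdown was compared with the scramble libraries of its own table. The same 3 scramble libraries serve as controls for both knockdowns, so the results of the knockdowns are not independent and are given side by side.

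Vertebrate neurons include many exons that other cells skip, and a small set of proteins makes that choice. PTBP1 binds pyrimidine-rich RNA and represses neuronal exons in dividing cells, and its paralog PTBP2 takes over in newly born neurons. NOVA proteins bind clusters of YCAY, RBFOX proteins bind UGCAUG and MBNL proteins bind YGCY, and each promotes or represses an exon depending on where it binds. SRRM4 (nSR100) promotes neuronal microexons. Cross-regulation is part of the system. PTBP1 represses an exon of Ptbp2 and the matching exon of its own RNA, and skipping of that exon shifts the reading frame and sends the RNA to nonsense-mediated decay. The tables hold 1 value per gene summed over its isoforms, so they show how much RNA each regulator had and not how any exon was spliced.

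The paralogous exons through which PTBP1 is known to lower Ptbp2 and its own RNA are shown because they are the textbook link between the first pair of members. They are read 5′ to 3′ on the transcript strand from NCBIM37, the sequence of mm9, with the exon in capitals, 100 bases of the intron before it and 30 bases of the intron after it.
Ptbp1, chr10:79324659-79324822, plus strand: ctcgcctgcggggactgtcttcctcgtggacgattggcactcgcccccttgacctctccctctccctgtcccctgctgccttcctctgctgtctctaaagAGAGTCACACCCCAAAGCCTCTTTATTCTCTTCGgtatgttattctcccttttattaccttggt
Ptbp2, chr3:119427500-119427663, minus strand: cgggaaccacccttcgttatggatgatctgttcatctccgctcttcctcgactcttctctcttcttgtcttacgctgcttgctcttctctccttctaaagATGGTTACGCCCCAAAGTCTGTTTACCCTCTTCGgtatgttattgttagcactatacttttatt

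Each exon is 34 bases long in the GENCODE vM1 annotation and 26 of the 34 positions (76.5%) are identical between the genes. Pyrimidines make up 71% of the 100 bases before the Ptbp1 exon and 73% of those before the Ptbp2 exon. The letters CTCTCT, a form of the element that PTB proteins bind, were searched on the transcript strand, with overlapping matches allowed. They occur 1 time before the Ptbp2 exon and 0 times before the Ptbp1 exon. Of 192337 internal exons scanned in the same way, 10.3% hold these letters in the 100 bases before the exon. The FPKM values below do not report inclusion of either exon.

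The siRNA targets moved with their labels. Exosc3 lay between 6.01 and 7.68 FPKM (fragments normalized to transcript length and library size) in siEXOSC3 cells against 42.7 to 45.8 in scramble, or 15.5% of the scramble mean. Ddx1 lay between 28.0 and 34.8 FPKM in siDDX1 cells against 119 to 130 in scramble, or 24.4%. Read numbers cannot be recovered from FPKM, which leaves the absolute depth unknown, and no counting interval is given. The smallest steps between low values put the depth of the libraries between 0.827 and 1.20 times that of scramble replicate 1. The number of calls over all genes depended on single libraries. In siDDX1, 623 genes were called higher and 559 lower. Without siDDX1 replicate 3 these were 1818 and 1706, without scramble replicate 1 they were 100 and 58, and without scramble replicate 3 they were 95 and 65. In siEXOSC3, the 1877 higher and 1767 lower calls became 1027 and 583 without scramble replicate 1, and 2379 and 2508 without siEXOSC3 replicate 2.

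In scramble cells, Ptbp1 was the most abundant of the 10 regulators, and the order spanned from well expressed to barely detected. On the per-length FPKM scale (mean ± SD, n = 3, values of the table shared with siEXOSC3), Ptbp1 was at 163 ± 4.11, Mbnl1 at 50.6 ± 3.05, Rbfox2 at 40.6 ± 0.895 and Mbnl2 at 39.6 ± 0.835. Below them came Ptbp2 at 28.2 ± 0.820, Nova2 at 9.50 ± 0.580, Srrm4 at 8.18 ± 0.0610 and Nova1 at 6.52 ± 0.448. Rbfox1 at 0.579 ± 0.122 and Rbfox3 at 0.0537 ± 0.00811 stood at the bottom. Only Rbfox2 and Mbnl2 overlapped with their neighbour in this order, and every other step separated the 3 libraries of a gene from the 3 of the next. Among all genes of the table, 97.8% had a lower scramble mean than Ptbp1 and 41.4% a lower one than Rbfox3, the gene for the neuronal antigen NeuN.

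Of the 10 regulators, 8 passed the level filter (a mean of at least 1 FPKM over the 6 libraries of a table) in both tables, and Rbfox1 and Rbfox3 did not. In siEXOSC3 cells, limma called 4 of these 8 at an adjusted p under 0.05, against 32.4% of the 11242 genes tested. Nova2 and Rbfox2 rose (2 of 8, against 16.7% of all genes called higher), and Ptbp1 and Ptbp2 fell (2 of 8, against 15.7% called lower). The 3 knockdown libraries did not overlap with scramble for 6 of the 8, which held for 49.7% of all genes tested. In siDDX1 cells, 1 of the 8 was called, a share of 12.5% against 10.6% of 11104 genes, and this is near the background. It was Rbfox2, which rose (5.61% of all genes were called higher), and 0 members were called lower (5.03% of all genes were). At an unadjusted p under 0.05, limma gave 4 of the 8 in siEXOSC3, against 45.4% of all genes, and 2 of the 8 in siDDX1, Rbfox2 and Nova1, against 30.1%. Groups did not overlap for 4 of the 8 in siDDX1, against 34.7% of all genes. The median log2 fold change of the 8 was 0.04 in siEXOSC3 and -0.002 in siDDX1, beside -0.01 and -0.0006 over all genes. In bulk RNA, more RNA per cell and more cells of a kind cannot be told apart.

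**Figure D1:**
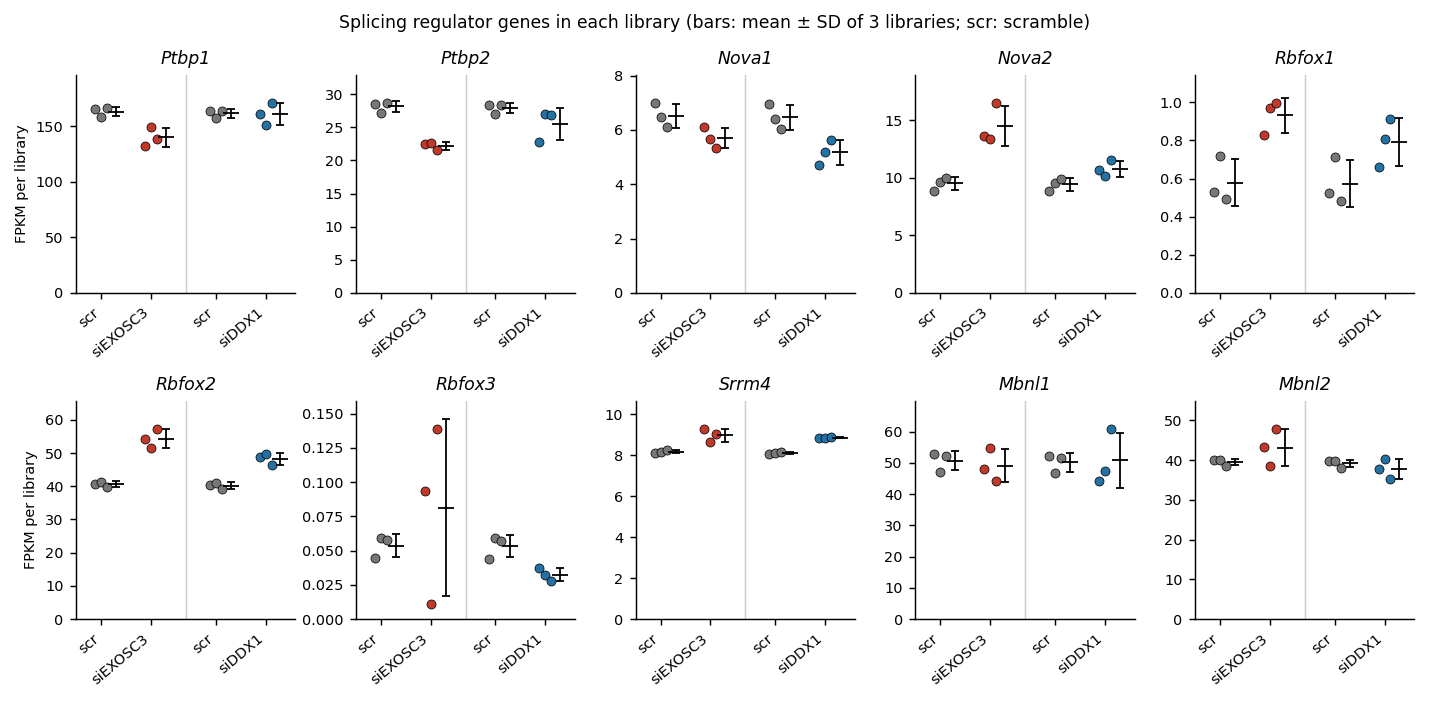
FPKM of the 10 genes in each library (points) with the mean ± SD of 3 libraries; in each panel the left pair is scramble and siEXOSC3 in their shared table and the right pair scramble and siDDX1 in theirs, and every y axis starts at 0. The siEXOSC3 points for Nova2 and Rbfox2 lie above all scramble points and those for Ptbp1 and Ptbp2 below, while Mbnl1 and Mbnl2 overlap in both knockdowns.

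Ptbp1, the repressor of neuronal exons (chr10:79317172-79327516, plus strand), was lower in siEXOSC3 cells. Its FPKM was 132, 149 and 138 in siEXOSC3 replicates 1 to 3 and 165, 158 and 166 in scramble. All siEXOSC3 libraries were below all scramble libraries, at 85.8% of the scramble mean. The log2 fold change was -0.22 ± 0.07 (SE, limma adjusted p = 0.0367). This call was lost in 4 of the 6 fits that left out 1 library. These were the fits without siEXOSC3 replicate 1 (limma adjusted p = 0.135) and without scramble replicate 1 (0.129), 2 (0.0763) or 3 (0.107). The call was also lost when each library was centred on its median (0.0554), with no intensity trend (0.0534) and with a replicate block (0.0887). Over all alternatives the adjusted p ranged from 0.0128 to 0.135 and the log2 fold change from -0.27 to -0.18. In siDDX1 cells Ptbp1 was at 161, 151 and 171 FPKM against 164, 157 and 164, groups that overlapped, with a log2 fold change of -0.01 (95% interval -0.16 to 0.14, limma adjusted p = 0.942). E130317F20Rik, annotated on the opposite strand across the Ptbp1 start, was at 4.07 to 5.12 FPKM in siEXOSC3 and 1.55 to 2.11 in scramble, and since the libraries do not keep strand, reads in the overlap cannot be assigned to either gene. Other genes annotated on the opposite strand overlap Ptbp1, Nova2, Rbfox3, Srrm4 and Mbnl2, and their levels were not examined.

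Ptbp2, the neural PTB paralog (chr3:119421660-119486306, minus strand), was also lower in siEXOSC3 cells. It was at 22.5, 22.7 and 21.5 FPKM in siEXOSC3 and 28.6, 27.2 and 28.7 in scramble. No siEXOSC3 library reached the lowest scramble library, and the mean was 78.9% of scramble. The log2 fold change was -0.33 ± 0.06 (SE, limma adjusted p = 0.00704), and the call held under each of the 13 alternatives (0.00458 to 0.0419). In siDDX1 cells Ptbp2 was at 22.7, 27.0 and 26.8 FPKM against 28.4, 27.0 and 28.3. Replicate 1 was the lowest of the 6 and the groups overlapped narrowly (log2 fold change -0.13, 95% interval -0.31 to 0.05, limma adjusted p = 0.305).

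Within a library, the Ptbp2 to Ptbp1 ratio compares the paralogs without the scaling between libraries. On the log2(FPKM + 1) scale it was -2.51, -2.66 and -2.63 in siEXOSC3 and -2.49, -2.50 and -2.49 in scramble. The scramble libraries were nearly equal, and all siEXOSC3 libraries lay below them, by 0.11 on average (exact permutation p = 0.1, two-sided, the smallest that 3 against 3 allows). After quantile normalization the difference was -0.08 with an exact permutation p of 0.4. In siDDX1 the ratio was -2.77, -2.44 and -2.63, a spread of libraries on either side of scramble (mean difference -0.12, exact permutation p = 0.4). This difference was -0.04 without siDDX1 replicate 1, -0.21 without siDDX1 replicate 2 and -0.04 after quantile normalization. The widely expressed paralog Ptbp3 was not called (log2 fold change 0.08 with siEXOSC3, at a limma adjusted p of 0.364). Its share of the summed PTB FPKM was 14.6 ± 0.790% in siEXOSC3 and 12.1 ± 0.0805% in scramble (mean ± SD, n = 3), with no overlap, while the sum was 190 ± 8.64 against 217 ± 5.76 FPKM.

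Nova2 (chr7:19510698-19551031, plus strand), the NOVA paralog of cortical and other forebrain neurons, had the largest rise among the 8 tested regulators in siEXOSC3 cells. It was at 13.6, 13.3 and 16.5 FPKM in siEXOSC3 and 8.87, 9.63 and 10.0 in scramble. The lowest siEXOSC3 library lay above the highest scramble library, and the mean was 152% of scramble. The log2 fold change was 0.56 ± 0.09 (SE, limma adjusted p = 0.00481), and it was called under each of the 13 alternatives (0.00191 to 0.0285). In siDDX1 cells Nova2 was at 10.7, 10.1 and 11.5 FPKM against 8.80, 9.55 and 9.89. These groups did not overlap either, but the change was not called (log2 fold change 0.18, 95% interval -0.002 to 0.36, limma adjusted p = 0.170).

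Nova1 (chr12:47795504-47919762, minus strand), the paralog of hindbrain and spinal cord neurons, was lower than scramble in every knockdown library without passing the test. It was at 6.09, 5.69 and 5.34 FPKM in siEXOSC3 against 6.99, 6.47 and 6.10 in scramble. The groups were separated by a narrow margin (log2 fold change -0.16, 95% interval -0.36 to 0.03, limma adjusted p = 0.167). In siDDX1 it was at 4.71, 5.18 and 5.63 FPKM against 6.94, 6.42 and 6.03, or 80.05% of the scramble mean (log2 fold change -0.27, 95% interval -0.48 to -0.07, limma adjusted p = 0.0852). Without siDDX1 replicate 3 the adjusted p was 0.0217 and the change was called, with a log2 fold change of -0.33. Over all alternatives the adjusted p ranged from 0.0217 to 0.270.

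The balance of the NOVA paralogs was compared within each library. The Nova2 to Nova1 log2 ratio, computed after the values of both genes were seen, was 1.05, 1.10 and 1.46 in siEXOSC3 and 0.30, 0.51 and 0.63 in scramble, a mean difference of 0.72. In siDDX1 it was 1.03, 0.85 and 0.92, a mean difference of 0.45. All knockdown libraries were above all scramble libraries in both tables, and the exact permutation p of 0.1 in each is the smallest that 3 against 3 allows. Nova2 made up 71.6 ± 3.45% of the summed NOVA FPKM in siEXOSC3, 67.6 ± 1.62% in siDDX1 and 59.3 ± 3.14% in scramble (mean ± SD, n = 3). The sum itself was above scramble in siEXOSC3 (20.2 ± 1.46 against 16.02 ± 0.140 FPKM) and overlapped with it in siDDX1 (15.95 ± 1.04 against 15.9 ± 0.124).

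**Figure D2:**
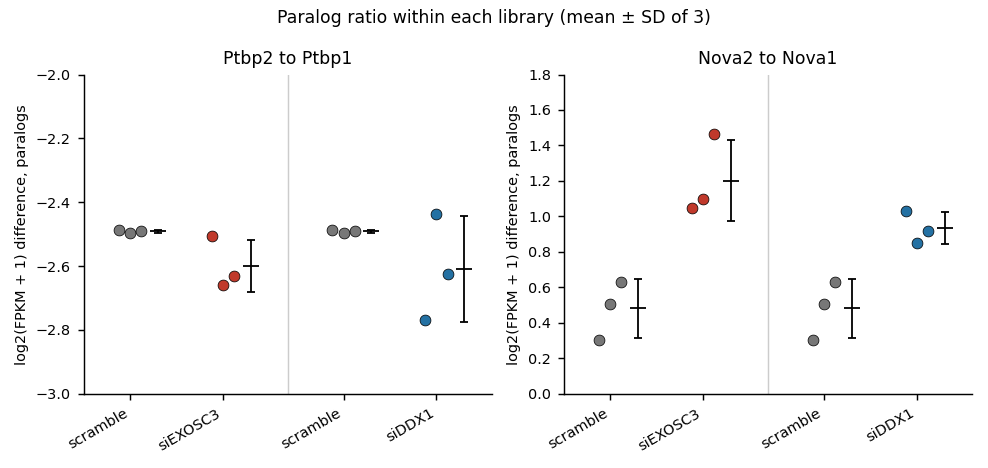
Paralog ratio in each library as the difference of log2(FPKM + 1) values, with the mean ± SD of 3 libraries; left Ptbp2 to Ptbp1, right Nova2 to Nova1, each with scramble and siEXOSC3 beside scramble and siDDX1, and y axes on a log2 scale with different ranges. The Nova2 to Nova1 points of both knockdowns (0.85 to 1.46) lie above scramble (0.30 to 0.63), while the siDDX1 points for Ptbp2 to Ptbp1 fall on either side of scramble.

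Rbfox2 (chr15:76909420-77137483, minus strand), the RBFOX paralog that is also expressed outside the nervous system, was the only regulator of the 8 called in both comparisons. It was at 54.2, 51.6 and 57.2 FPKM in siEXOSC3 and 40.7, 41.4 and 39.6 in scramble. All siEXOSC3 libraries were well above scramble, at 134% of its mean (log2 fold change 0.41 ± 0.06, SE, limma adjusted p = 0.00359), and the call held under each of the 13 alternatives (0.00136 to 0.0238). In siDDX1 it was at 48.8, 49.7 and 46.3 FPKM against 40.3, 41.1 and 39.2. These libraries too were all above scramble, at 120% of its mean (log2 fold change 0.26 ± 0.06, SE, limma adjusted p = 0.0283). The siDDX1 call was lost in 5 of the 6 fits that left out 1 library. Without siDDX1 replicate 1 or 2 the adjusted p was 0.0792 or 0.111, and without scramble replicate 1, 2 or 3 it was 0.115, 0.0755 or 0.117, while the log2 fold change stayed between 0.24 and 0.29 over all alternatives. Without siDDX1 replicate 3 the adjusted p was 0.00544. Whether the change in siEXOSC3 differs from that in siDDX1 was not tested. 1700109K24Rik, annotated within Rbfox2 on the opposite strand, was at 3.15 to 4.53 FPKM in siEXOSC3 and 2.63 to 2.91 in scramble, and at 1.77 to 4.12 in siDDX1 against 2.60 to 2.89.

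The neuronal RBFOX paralogs were low. Rbfox1 (chr16:6809315-7412572, plus strand), a regulator of mature neuron and muscle exons, was at 0.827, 0.969 and 0.997 FPKM in siEXOSC3 and 0.529, 0.718 and 0.490 in scramble. The siEXOSC3 libraries were all above scramble. It passed no level filter, and without that filter its log2 fold change was 0.29 ± 0.07 (SE, limma adjusted p = 0.0419), on a scale where the pseudocount of 1 understates the change of a gene this low. In siDDX1 it was at 0.662, 0.805 and 0.913 FPKM against 0.525, 0.712 and 0.484, groups that overlapped (limma adjusted p = 0.226 without the filter). Rbfox3 (chr11:118351074-118772911, minus strand) was at 0.0938, 0.0113 and 0.138 FPKM in siEXOSC3, against 0.0444, 0.0593 and 0.0574 in scramble, and its siEXOSC3 libraries lay on either side of scramble. In siDDX1 it was at 0.0371, 0.0323 and 0.0275 FPKM against 0.0440, 0.0588 and 0.0567, below scramble in all libraries (60.7% of its mean, limma adjusted p = 0.434 without the filter). Rbfox2 made up 98.2 ± 0.142% of the summed RBFOX FPKM in siEXOSC3 and 98.5 ± 0.269% in scramble.

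Srrm4 (chr5:116889281-117041826, minus strand), the microexon activator, was slightly higher than scramble in both knockdowns without passing the test. It was at 9.27, 8.64 and 9.04 FPKM in siEXOSC3 against 8.11, 8.18 and 8.23 in scramble. In siDDX1 it was at 8.85, 8.83 and 8.89 FPKM against 8.05, 8.12 and 8.14. In each table the 3 knockdown libraries all lay above the 3 scramble libraries, at 110% and 109% of the scramble mean. The change was not called in either, with log2 fold changes of 0.12 (95% interval -0.04 to 0.28, limma adjusted p = 0.209) and 0.11 (-0.04 to 0.27, limma adjusted p = 0.276).

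The muscleblind genes gave no call. Mbnl1 (chr3:60277032-60433670, plus strand) was at 48.1, 54.8 and 44.3 FPKM in siEXOSC3 against 52.7, 47.1 and 52.1, and at 44.2, 47.4 and 60.7 in siDDX1 against 52.2, 46.8 and 51.5. Library siDDX1 replicate 3 was the highest of all. Both groups overlapped with scramble, with 95% intervals of the log2 fold change from -0.25 to 0.15 and from -0.25 to 0.26 (limma adjusted p = 0.699 and 0.978). Mbnl2 (chr14:120674891-120830919, plus strand) was at 43.2, 38.6 and 47.8 FPKM in siEXOSC3 against 40.04, 40.04 and 38.6, and at 37.7, 40.3 and 35.3 in siDDX1 against 39.7, 39.7 and 38.1. It overlapped as well, with intervals from -0.07 to 0.31 and from -0.20 to 0.10 (limma adjusted p = 0.293 and 0.620). Summed MBNL FPKM was 92.3 ± 1.07 in siEXOSC3 and 90.2 ± 2.80 in scramble.

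**Figure D3:**
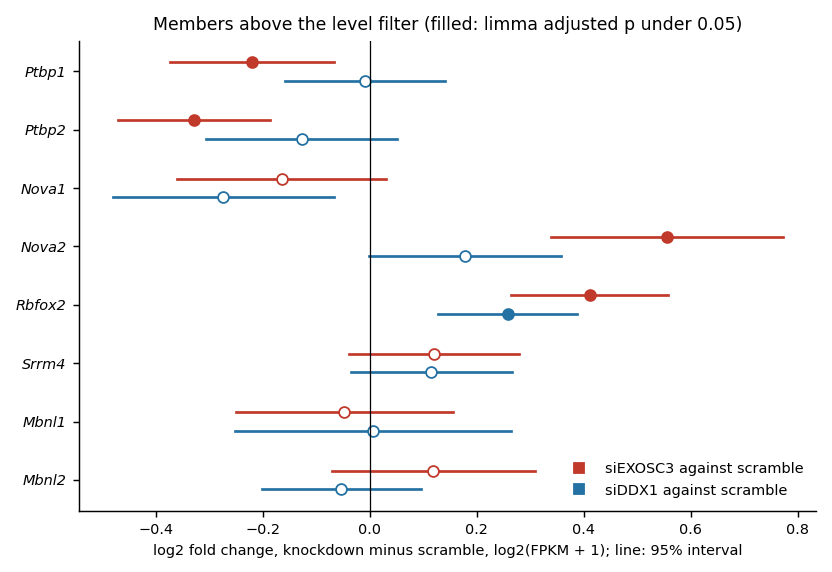
Log2 fold change of each knockdown against scramble on the log2(FPKM + 1) scale (points) with its 95% interval (lines) for the 8 regulators above the level filter; red is siEXOSC3, blue is siDDX1, and filled points passed an adjusted p of 0.05 in limma. In siEXOSC3 the filled points are Nova2 (0.56), Rbfox2 (0.41), Ptbp1 (-0.22) and Ptbp2 (-0.33), and in siDDX1 Rbfox2 (0.26).

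Neuronal marker genes moved in the same siEXOSC3 libraries. Of 20 listed markers of neuroblastoma and neuronal cells, 16 were tested, and in siEXOSC3 12 rose and 0 fell (75% called, against 32.4% of all genes), with a median log2 fold change of 0.69. Tubb3 (neuronal tubulin) was at 162 to 166 FPKM in siEXOSC3 and 86.7 to 105 in scramble, and Gap43 (a growth cone protein) at 223 to 248 against 77.0 to 84.2. The summed level of the list was 983 to 1016 FPKM against 607 to 665. Of 6 markers of post-mitotic neurons (Rbfox3 among them), the 3 tested (Syn1, Snap25 and Syt1) rose, while Gad1 was listed at 0 in every library. In siDDX1 2 of 16 neuronal markers rose (12.5%, against 10.6% of all genes called in either direction), Gap43 and Elavl4. The count of calls was 1 to 5 when a library was left out. The Elavl4 call (limma adjusted p = 0.0361) was lost without siDDX1 replicate 2 or any scramble library, reaching 0.121. The summed level overlapped with scramble (619 to 696 against 602 to 657 FPKM). Limma called 0 of the 3 post-mitotic markers there, with 1 at an unadjusted p under 0.05 (30.1% of all genes). The part of these marker changes in the results for the splicing regulators was not tested.

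The levels of markers of other cell types follow, list by list. In the siEXOSC3 table the 7 glial markers summed to 2.60 to 2.89 FPKM in siEXOSC3 and 2.53 to 3.10 in scramble, with Aqp4 and Olig1 listed at 0, and the 5 muscle markers to 2.197 to 6.26 and 2.84 to 3.98, with Ckm and Myh1 at 0. The 4 epithelial markers summed to at most 0.353 FPKM in any library of that table, with Epcam, Cdh1 and Krt18 at 0, and to at most 0.422 in the siDDX1 table, where each of the 3 was above 0 in at least 1 siDDX1 library. In the siEXOSC3 table the 4 immune markers summed to at most 1.88, with Ptprc at 0, and the 4 fibroblast markers to at most 1.31, with Col1a2 at 0. The 3 endothelial markers summed to 6.15 to 9.08 FPKM in siEXOSC3 against 3.84 to 4.51, nearly all from Pecam1, which rose (log2 fold change 0.67, limma adjusted p = 0.00827), while Kdr was at 0. With siDDX1 the muscle sum was 3.96 to 4.08 FPKM against 2.80 to 3.95, and the endothelial sum 4.88 to 5.54 against 3.81 to 4.46. Both lay above scramble in all libraries, and the sums of the other lists overlapped with it. In siDDX1 limma called 0 of the 3 markers of these cell types that could be tested (Mbp, Acta1 and Pecam1). Only 1, Pecam1, had an unadjusted p under 0.05 in limma, against 30.1% of all genes.

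The surrounding circuit that sets PTBP1 levels was examined through REST, the repressor of neuronal genes, and its corepressors and small phosphatase partners. The list also held the miR-124 genes, which REST silences and whose product targets Ptbp1 RNA, and the miR-9 genes. Of 14 listed genes 6 were tested, and in siEXOSC3 3 fell and 0 rose (50% called, against 32.4% of all genes, median log2 fold change -0.18). The corepressors tested, Rcor1, Rcor2 and Sin3a, were not called (log2 fold change -0.06, 0.14 and 0.02, limma adjusted p = 0.492, 0.278 and 0.860). Rest was at 7.51, 7.51 and 8.46 FPKM in siEXOSC3 and 11.6, 12.9 and 10.8 in scramble. The groups were clearly apart (log2 fold change -0.53 ± 0.09, SE, limma adjusted p = 0.00434), and Rest was called in each of the 6 fits that left out 1 library. Ctdsp2 fell by 0.30 on the log2 scale (limma adjusted p = 0.0122), a call lost without scramble replicate 2 (0.0512). Ctdsp1 fell by 0.29 (0.0366), a call kept in only 1 of the 6 fits that left out a library. In siDDX1 limma called 0 of the 6, against 10.6% of all genes, and 2 had an unadjusted p under 0.05, against 30.1% of all genes. Rest was at 9.38, 9.93 and 9.18 FPKM there against 11.5, 12.8 and 10.7, below scramble in all libraries (log2 fold change -0.27, limma adjusted p = 0.0707).

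The hairpins of miR-124 and miR-9 were listed at 0 in every library. The host transcript Mir124a-1hg, singled out after its values were seen, was at 0.338, 0.236 and 0.295 FPKM in siEXOSC3 and 0.0853, 0.119 and 0.0993 in scramble. The siEXOSC3 libraries were all above scramble at a level far under the filter (limma adjusted p = 0.0150 without it). In siDDX1 the transcript was at 0.0744, 0.0932 and 0.181 FPKM, which overlapped with scramble.

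Among 26 other splicing regulators, 17 were tested. In siEXOSC3 4 fell and 0 rose (23.5% called, under the 32.4% of all genes), with a median log2 fold change of -0.05. Sfpq, a paraspeckle protein, was at 90.9, 123 and 71.7 FPKM in siEXOSC3 against 154, 152 and 160 (log2 fold change -0.73, limma adjusted p = 0.0128), a call lost without scramble replicate 3 (0.0535). Qk, the quaking regulator of glial and muscle exons, was at 32.5, 35.9 and 27.6 FPKM against 53.3, 49.7 and 48.0 (log2 fold change -0.64, limma adjusted p = 0.00322), and it was called in each of those 6 fits. Pcbp1 and Rbm4b fell by 0.28 and 0.35 on the log2 scale (limma adjusted p = 0.0103 and 0.0275). The Pcbp1 call was lost without scramble replicate 1 (0.0540), and that of Rbm4b in 3 of the 6 fits without 1 library. In siDDX1 limma called 0 of the 17, against 10.6% of all genes. At an unadjusted p under 0.05 there were 6, against 30.1% of all genes. Without siDDX1 replicate 3 limma called 7, and of all 11108 genes tested it called 1818 higher and 1706 lower.

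Genes known to carry exons controlled by the 10 regulators were examined for their total RNA. Of the 13 tested PTB target genes, 5 rose and 1 fell in siEXOSC3 (46.2% called, against 32.4% of all genes, median log2 fold change 0.24). The count of 6 was 4 to 8 when a library was left out, and Ppp3ca and Tpm1 were lost in 4 and 3 of those 6 fits. Tpm2 (tropomyosin), Gabbr1 (a GABA-B receptor subunit) and Dlg4 (PSD-95) had the largest changes. Dlg4, whose RNA PTB proteins are known to lower by repressing an exon, was at 31.9, 30.2 and 44.9 FPKM in siEXOSC3 and 19.1, 21.5 and 20.5 in scramble (log2 fold change 0.76, limma adjusted p = 0.00594). Gabbr1 was at 7.44, 6.54 and 8.63 FPKM against 3.68, 3.99 and 4.11 (0.79, limma adjusted p = 0.00217). Tpm2 was at 15.0, 14.7 and 18.3 against 7.51, 9.78 and 7.91 (0.86, limma adjusted p = 0.00233). All 3 were called in each of the 6 fits that left out 1 library.

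In siDDX1 2 of the 13 PTB target genes rose and 1 fell (23.1% called, against 10.6% of all genes, median 0.15). The count of 3 was 0 to 6 when a library was left out. Dlg4 was at 25.6, 28.5 and 26.4 FPKM against 18.9, 21.3 and 20.2 (log2 fold change 0.39, limma adjusted p = 0.0150), and Actn1 (alpha-actinin) was higher by 0.42 (0.0126). Each of these calls was lost without siDDX1 replicate 2, scramble replicate 1 or scramble replicate 3, with an adjusted p of at most 0.0821 for Dlg4 and 0.0691 for Actn1. Tpm1 fell by 0.45 (0.0105), a call lost without scramble replicate 1 or 3 (at most 0.0623).

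Of 6 tested NOVA target genes, 3 rose and 1 fell in siEXOSC3 (66.7% called, against 32.4% of all genes, median 0.26), and these 4 calls became 2 to 4 when a library was left out. Agrn (agrin, limma adjusted p = 0.0449) was called in only 1 of those 6 fits, and Epb4.1 was lost without scramble replicate 1 (0.0516). Mapk9 (the kinase JNK2), called in all of them, was at 23.9, 21.5 and 26.5 FPKM against 17.98, 17.1 and 17.1 (log2 fold change 0.44, limma adjusted p = 0.00742). Of 11 RBFOX target genes with a mean of at least 1 FPKM in each group, 5 rose and 1 fell (54.5% called, against the same 32.4%, median 0.26). Of these, Vamp1, whose groups overlapped, was called in 2 of the 6 fits without 1 library. Ank3 (ankyrin-G) was at 13.2, 11.9 and 16.1 FPKM against 7.59, 8.52 and 7.89 (0.70, limma adjusted p = 0.00330). Grin1 (an NMDA receptor subunit), also an MBNL target gene, averaged 0.596 FPKM in scramble and 1.93 in siEXOSC3. It passed the level filter only through the group where it was higher, so its test carries no weight and it is left out of the list counts given here. In siDDX1 1 of the 6 NOVA target genes, Gphn (gephyrin), and 2 of 11 RBFOX target genes, Fn1 and Camk2d, rose, with medians of 0.05 and 0.04. These are 16.7% and 18.2% of the lists, against 10.6% of all genes called. Fn1 (fibronectin) was at 133, 139 and 148 FPKM in siDDX1 against 78.1, 83.7 and 85.0 (log2 fold change 0.76, limma adjusted p = 0.00308) and was called in each of those 6 fits. Gphn (limma adjusted p = 0.0429) and Camk2d (0.0383) were each lost in most of those fits, in which the adjusted p reached 0.156 and 0.140.

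Of 10 MBNL target genes at that level in each group, 3 rose and 2 fell in siEXOSC3 (50% called, against 32.4% of all genes, median 0.16). The rise of Add1 was not called without scramble replicate 1 (limma adjusted p = 0.0541), and the fall of Foxp1 was called in 2 of the 6 fits without 1 library. Mapt (tau) was at 35.7, 28.1 and 48.0 FPKM against 14.6, 17.9 and 13.4 (log2 fold change 1.21, limma adjusted p = 0.00313) and Tnnt2 (cardiac troponin T) at 15.1, 12.9 and 15.1 against 29.5, 32.4 and 31.8 (-1.07, limma adjusted p = 0.000357). The groups of both genes did not overlap. In siDDX1 2 of 10 rose and 1 fell (30% called, against 10.6% of all genes, median 0.08). Mapt was at 27.3, 29.4 and 21.5 FPKM against 14.4, 17.8 and 13.2 (0.74, limma adjusted p = 0.0154) and Tnnt2 at 17.8, 22.6 and 23.2 against 29.2, 32.2 and 31.4 (-0.53, 0.0180). Leaving out single libraries raised these adjusted p-values to at most 0.0801 for Mapt, whose call was lost without siDDX1 replicate 1 or 2 or scramble replicate 1 or 3, and 0.0832 for Tnnt2, whose call was lost without any scramble library.

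Of 16 tested genes with SRRM4-dependent microexons, 3 rose and 2 fell in siEXOSC3 (median 0.05) and 2 rose in siDDX1 (median -0.004). These shares, 31.2% and 12.5%, are near those of all genes (32.4% and 10.6%). When a library was left out, the 5 calls in siEXOSC3 became 3 to 6 and the 2 in siDDX1 became 0 to 5. In siEXOSC3 Apbb1 was called in 1 of the 6 fits without 1 library and Agap1 in 2, and in siDDX1 Agap1 was called in 4. Rest, which stands on this list because its RNA holds such an exon, is 1 of the 2 that fell, and Itsn1 (intersectin) is the other (log2 fold change -0.36, limma adjusted p = 0.0103). Daam1, a formin that assembles actin, was at 17.4, 15.6 and 19.1 FPKM in siEXOSC3 against 12.4, 12.3 and 11.8 (0.48, limma adjusted p = 0.00529) and at 15.8, 16.3 and 14.6 in siDDX1 against 12.3, 12.2 and 11.6 (0.34, limma adjusted p = 0.0211). The siDDX1 call of Daam1 was kept only without siDDX1 replicate 3, with an adjusted p of up to 0.0948 in the other fits. Over all regulator and target lists together, 30 of 73 tested genes (41.1%, Grin1 left out) were called in siEXOSC3 and 10 of 73 (13.7%) in siDDX1, beside 32.4% and 10.6% of all genes. Some genes stand on more than 1 list, and the lists are not evidence about splicing.

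**Figure D4:**
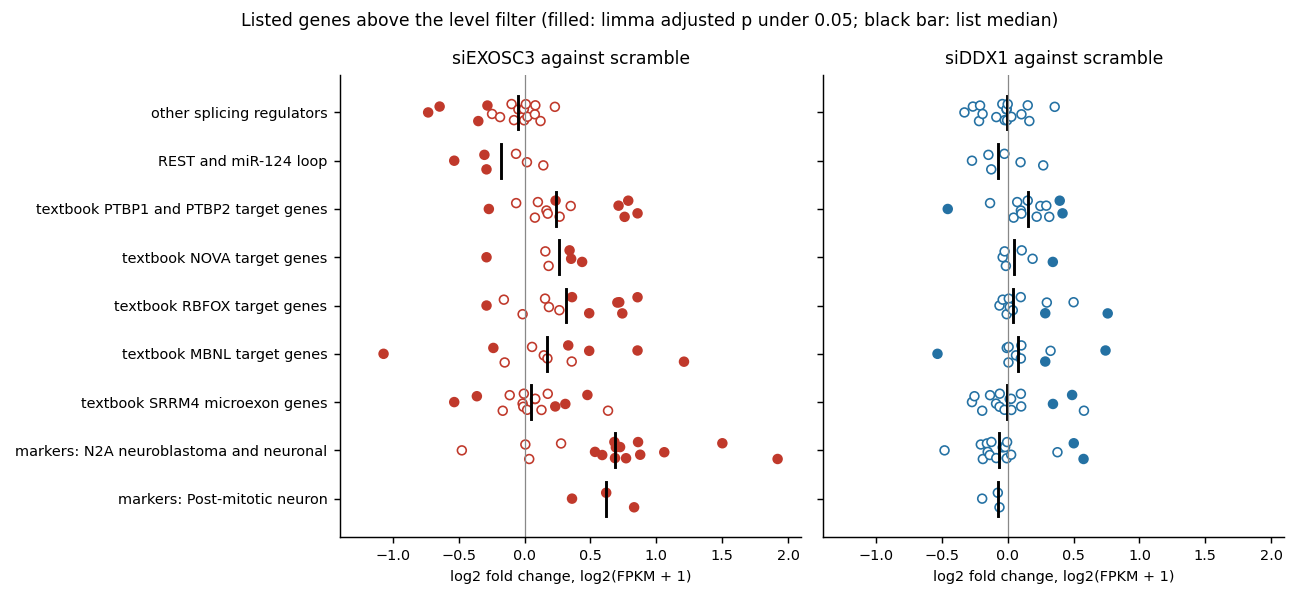
Log2 fold change of each listed gene above the level filter in siEXOSC3 (left) and siDDX1 (right) against scramble; filled points passed an adjusted p of 0.05 in limma, black bars mark list medians and points are spread vertically only to be seen. Among the lists drawn, the neuronal marker lists have the highest medians in siEXOSC3 (0.69 and 0.62), and the other splicing regulators and the REST list hold filled points only below 0. In siEXOSC3 Grin1 is drawn in the RBFOX and MBNL lists and enters their medians (0.31 and 0.17), although its test carries no weight.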

How the data were processed

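RNA-seq was performed on rRNA-depleted, nondirectional libraries of N2A cells (3 per group). Per the labels, the authors aligned reads to mm9 with TopHat2 version 2.1.0 and ran Cuffdiff version 2.2.1, and they deposited FPKM values per gene in 2 tables, 1 per knockdown, each with the same 3 scramble libraries. The tables were scaled separately (scramble values of the 10 genes differ by a factor of 1.008 to 1.012), so tests stay within a table. The annotation given to Cuffdiff is not given in the sources used here.

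The deposited FPKM were converted to log2(FPKM + 1). Genes averaging 1 FPKM or more over the 6 libraries of a table were fitted in R version 4.3.3 by limma version 3.58.1, with an intensity trend and no covariates. P-values were two-sided, Benjamini-Hochberg adjusted over all genes tested, with a threshold of 0.05. The procedure was tested on simulated data. Paralog ratios were compared with exact permutation tests. Positions came from GENCODE vM1 on NCBIM37. Plots used matplotlib version 3.10.9. Members and gene lists were chosen with earlier results of these data known. Named were all 10 members, the siRNA targets, at most 3 called genes per list and knockdown whose groups do not overlap, at most 4 markers per marker list, and other list members only where a count of 5 or fewer turns on them. Rcor1, Rcor2, Sin3a, Ppp3ca, Tpm1 (siEXOSC3), Vamp1, Add1 and Foxp1 were named after their values were seen. An item that this rule would name is not reported here. Lists are described by counts and medians, with no set test. Alternatives were the pseudocount (0.1), no filter or a filter of 5 FPKM, quantile normalization, median centring, no trend, a threshold of 0.01, a replicate block and leaving out each library.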

Additional observations from a re-analysis of the deposited data

How the results depend on the processing

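The number of regulators called in siEXOSC3 stayed between 3 and 5 over all 14 alternatives, and 3 to 4 when a library was left out. Nova2, Rbfox2 and Ptbp2 kept their calls. Ptbp1 lost its call in 7 of the 13 alternative fits and also at an adjusted p under 0.01. In siDDX1 the count was 0 to 2 when a library was left out (1 to 3 at an unadjusted p under 0.05 in limma) and 0 at an adjusted p under 0.01, and it was 1 under the other settings. Calls in the regulator and target lists, Grin1 included, ranged from 19 to 38 (siEXOSC3, 31 with all libraries and 30 without Grin1, when a mean of at least 1 FPKM was required in each group, a setting added after the data were seen) and from 1 to 27 (siDDX1, 10 with all libraries) when a library was left out, and they were 17 and 2 at an adjusted p under 0.01. The 27 came without siDDX1 replicate 3, where 1818 of all 11108 genes tested were called higher and 1706 lower. Mean differences of the Ptbp2 to Ptbp1 ratio stayed between -0.15 and -0.08 in siEXOSC3 and between -0.21 and -0.04 in siDDX1.

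Replicate numbers did not pair the siEXOSC3 libraries with scramble, where the correlation of same-numbered deviations was 0.03, -0.31 and -0.13. In siDDX1 this correlation was -0.01, 0.38 and 0.37. Replicates 2 and 3 correlated best with their own number there, and replicate 1 did not. With the replicate block, 3 regulators were called in siEXOSC3 (Ptbp1 at a limma adjusted p of 0.0887) and 1 in siDDX1, and the list calls were 24 and 20. The calls over all genes moved with the block too. In siEXOSC3 they were 1390 higher and 1059 lower, against 1877 and 1767 without it. In siDDX1 they were 1085 and 808, against 623 and 559. The ratio differences with the block were -0.11 and -0.12. The cause of these shifts was not tested. With 3 libraries a group and FPKM in place of counts, changes of Srrm4, Mbnl1 and Mbnl2 within their intervals could not be resolved.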
